A study of Mus musculus with 6 samples.

Results

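The oxygen-sensing HIF pathway, by 10 of its genes, was followed in mouse macrophages that had received exosomes, small vesicles released by cells, from mechanically stretched or unstretched epithelial cells. The 10 genes are 7 pathway components (Hif1a, Epas1, Arnt, Vhl, Hif1an, Egln1 and Egln2) and 3 genes known to be induced by HIF and used here as reporters (Egln3, Bnip3 and Ankrd37). They were taken by gene symbol from a table of 16906 genes. All 10 were present once, and all 10 were among the 12892 genes with enough counts to be tested. The macrophages came from bone marrow of wild-type C57BL/6 mice and were cultured for 7 days in 10% serum; the growth factor M-CSF was used at 10 ng/ml. The group called stretched (3 libraries) received exosomes of epithelial cells put under cyclic stretch for 6 h, and the group called static (3 libraries) received exosomes of epithelial cells that had not been stretched. All cells received exosomes at 100 µg/ml for 12 h, and a group without exosomes was not analysed here. The labels name neither the source of the epithelial cells nor the oxygen tension, and do not say whether replicates came from separate animals. A p-value therefore reflects the spread among these 6 libraries alone, and that spread may be technical.

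HIF is a dimer of an oxygen-labile alpha subunit (HIF-1α from Hif1a, or HIF-2α from Epas1) and a stable partner, ARNT. With oxygen present, prolyl hydroxylases of the EGLN family mark the alpha subunit, the VHL protein recognises the mark and the subunit is degraded, while the asparaginyl hydroxylase from Hif1an, called FIH, blocks the recruitment of coactivators. When the alpha subunit escapes this control, the dimer binds hypoxia response elements, whose core letters are ACGTG or GCGTG, and raises genes of glycolysis, angiogenesis, mitophagy and the hydroxylases themselves. In macrophages inflammatory signals also raise Hif1a transcription, so HIF activity does not need a lack of oxygen. RNA levels do not show the amount or hydroxylation of the HIF proteins.

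Levels are given as FPKM, the count of a gene relative to its length and to the total of the library, and fold changes come from the counts. Libraries held 16984561 to 17625991 estimated counts. Among all genes tested, 844 were higher and 694 lower with exosomes of stretched cells (edgeR quasi-likelihood test, adjusted p under 0.05), or 556 and 1297 when libraries were scaled by their totals alone, which moved the median log2 fold change of all genes to -0.19. All 10 macrophage markers examined, among them Csf1r and Adgre1, were detected in every library. Of these, 1 was called higher (Mertk, log2 fold change 0.81, adjusted p = 0.0479, edgeR) and 0 lower. Adgre1 (-0.64) and Cd68 (0.61) did not pass. Static 3 stood apart, with neutrophil markers above the other static libraries (14 of 14 genes, median log2 difference 1.37), monocyte markers above them (7 of 8, 1.77) and endothelial markers below them (0 of 8 above, -1.51). Lymphocyte (7 of 8, 1.39), mast cell and basophil (7 of 7, 1.36), erythroid (2 of 2, 1.16) and stromal markers (7 of 8, 0.65) were also above the other static libraries in static 3. Summed neutrophil markers ran from 7620 to 15871 FPKM in stretched libraries and from 6941 to 23938 FPKM in static ones, with the highest stretched value in stretched 3. The 7 epithelial markers in the table summed to 10.0 to 19.3 FPKM in stretched and 5.73 to 7.52 FPKM in static libraries. Most of it was Epcam, which rose (adjusted p = 0.044, edgeR, and 0.0605 with the replicate number added to the fit as a block). Over the libraries Krt19 ran from 0.15 to 1.37 FPKM and Cdh1 from 0.26 to 0.74 FPKM, while Krt8, Krt18, Sftpb and Nkx2-1 did not exceed 0.42 FPKM. The part of these cells in the results was not tested. Fits without a library do not test it, since the libraries kept still hold transcripts of these markers. In bulk RNA, fewer cells of a type and less RNA per cell cannot be told apart.

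The 3 reporters rose with exosomes of stretched cells, and among the 7 components Hif1a rose and Hif1an fell. With the replicate block the 3 reporters still passed and 0 of the 7 components did, where 9.02% of all tested genes were called. In that block fit 6 components (4 higher, 2 lower) and the 3 reporters had an unadjusted p below 0.05 in edgeR. The share of all tested genes below it was 32.2%. Without the block, 4 members were higher and 1 lower of 10, where 6.55% of all tested genes were called higher and 5.38% lower. Arnt, Vhl, Egln1, Egln2 and Epas1 did not pass. On counts scaled by TMM, edgeR's correction for library composition, the 2 groups of libraries did not overlap for 9 members, 7 of them higher and 2 lower, the exception being Epas1; over all tested genes the share was 36.7% (18.5% higher, 18.2% lower). The number of called members was 3, 0 and 4 without stretched 1, 2 and 3 and 1, 0 and 9 without static 1, 2 and 3. The share of all tested genes called in the same fits was 1.23%, 0.275%, 6.25%, 0.673%, 0% and 31.5%. In each fit with 0 calls, 8 members had an unadjusted p below 0.05 in edgeR, as had 22.1% of all genes without stretched 2 and 21.8% without static 2. With all libraries DESeq2, which made more false and also more true gene calls than edgeR in simulated counts, called 8 members (6 higher, 2 lower). It called 20.8% of all tested genes (10.8% higher, 9.96% lower). The reporters alone gave 3, 0, 3, 1, 0 and 3 calls in the same order of libraries, and the components 0, 0, 1, 0, 0 and 6.

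**Figure D1:**
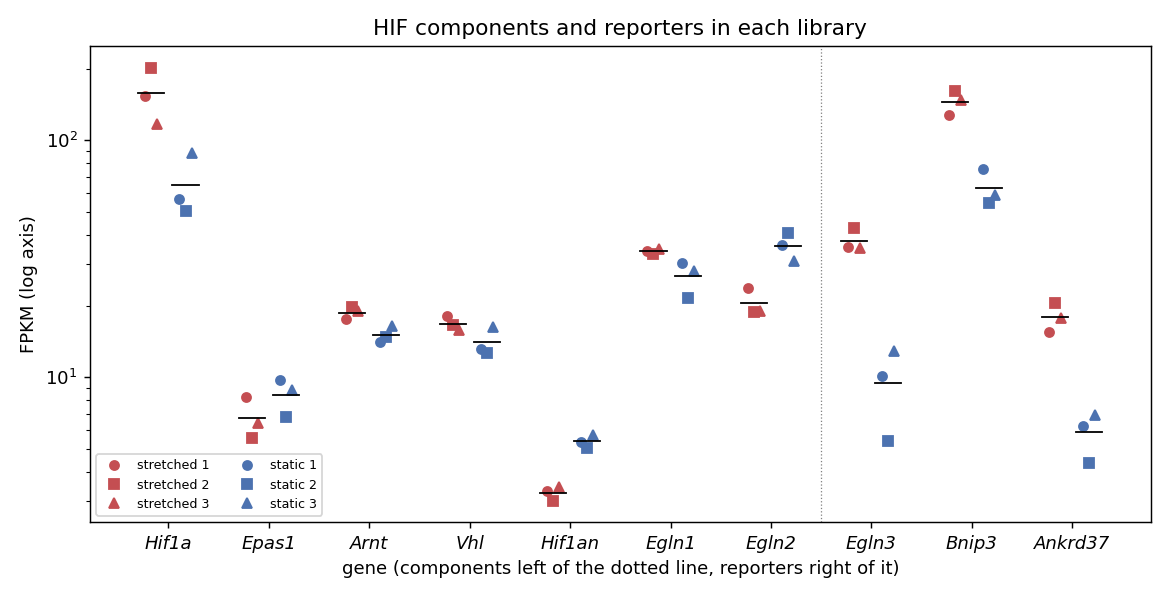
FPKM (log axis) of the 7 components and 3 reporters in each library, stretched left of static for each gene; symbols mark the replicate number and short lines the group mean. Egln3 sits between 35.0 and 42.8 FPKM in stretched libraries and between 5.41 and 12.96 FPKM in static ones, while the values of Epas1 overlap.

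Egln3 encodes a prolyl hydroxylase that is itself strongly induced by HIF, and it had the largest fold change among the members. Its gene (ID 112407) lies at chr12:54178981-54203874 on the minus strand (GRCm38). It lay at 35.5, 42.8 and 35.0 FPKM in stretched 1 to 3, against 10.1, 5.41 and 12.96 FPKM in static 1 to 3. Every stretched library was above every static one, and static 2 was the lowest. The log2 fold change was 2.21 ± 0.31 (SE, adjusted p = 0.0153, edgeR; 0.0312 with the replicate block), a 4.63-fold difference on the fitted scale. The rise was 2.47 without static 3 and 2.28 without stretched 3, the libraries with the most neutrophil transcripts in each group, though the part of neutrophils was not tested. It missed the threshold on leaving out stretched 2 (adjusted p = 0.0701), static 1 (0.0524) or static 2 (0.0527), with an adjusted p of 1.52e-09 to 0.0701 over all alternatives.

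Bnip3 encodes a mitochondrial outer-membrane protein that tags mitochondria for mitophagy, and it was the most abundant reporter. Its gene (ID 12176) lies at chr7:138890836-138909506 on the minus strand. Its levels were 128, 162 and 147 FPKM in stretched libraries, against 75.9, 54.3 and 59.0 FPKM in static libraries. Again the groups were apart, and the log2 fold change was 1.41 ± 0.20 (adjusted p = 0.0153, edgeR). It missed the threshold without stretched 2 or static 2 (adjusted p = 0.0652 and 0.072, with 3.17e-08 to 0.072 over all alternatives). An annotated antisense gene and a processed pseudogene lie within the Bnip3 locus, and since no source used here gives the strandedness of the libraries, antisense reads cannot be told apart from those of Bnip3.

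Ankrd37 encodes a small ankyrin-repeat protein whose gene is a known direct HIF target (ID 654824, chr8:45996908-46000414, minus strand). It lay at 15.5, 20.6 and 17.8 FPKM in stretched libraries, against 6.26, 4.36 and 6.95 FPKM in static libraries, on 207 to 273 and 59 to 90 counts. The log2 fold change was 1.83 ± 0.24 (adjusted p = 0.0145, edgeR), and leaving out stretched 2 (adjusted p = 0.0652), static 1 (0.0503) or static 2 (0.0552) ended the call, with 1.51e-08 to 0.0652 over all alternatives. Ankrd37 overlaps Lrp2bp, which held 0 to 8 counts per library, and its last bases overlap Ufsp2, which held 668 to 1075 counts per library. Among stretched libraries stretched 2 was highest for Egln3, Bnip3 and Ankrd37, and among static libraries static 2 was lowest for all 3.

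The promoters of the 5 called members are shown because they allow the HIF core letters to be seen beside the changes. Windows cover 250 bases before to 50 after the annotated start (RefSeq, GRCm38.p6), 5′ to 3′ on the gene's strand, and capitals mark ACGTG and GCGTG on either strand, read as CACGT and CACGC when on the other one. Adjacent capitals can belong to overlapping matches, as in CACGTG, which holds ACGTG on both strands and is also the core of an E-box. The windows are chr12:54203825-54204124 (minus strand) for Egln3, chr7:138909457-138909756 (minus) for Bnip3, chr8:45999801-46000100 (minus) for Ankrd37, chr12:73907617-73907916 (plus) for Hif1a and chr19:44562604-44562903 (plus) for Hif1an.
Egln3: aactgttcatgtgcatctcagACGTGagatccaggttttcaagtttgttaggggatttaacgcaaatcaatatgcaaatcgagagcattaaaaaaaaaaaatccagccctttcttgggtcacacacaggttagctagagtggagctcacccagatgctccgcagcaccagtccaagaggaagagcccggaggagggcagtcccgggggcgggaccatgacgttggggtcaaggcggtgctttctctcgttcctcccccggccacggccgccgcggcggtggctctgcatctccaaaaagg
Bnip3: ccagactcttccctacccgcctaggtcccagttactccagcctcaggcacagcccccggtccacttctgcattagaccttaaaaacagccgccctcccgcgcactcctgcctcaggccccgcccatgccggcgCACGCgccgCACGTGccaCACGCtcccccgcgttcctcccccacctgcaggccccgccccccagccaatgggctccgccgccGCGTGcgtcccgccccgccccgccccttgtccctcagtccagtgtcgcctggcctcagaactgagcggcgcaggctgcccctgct
Ankrd37: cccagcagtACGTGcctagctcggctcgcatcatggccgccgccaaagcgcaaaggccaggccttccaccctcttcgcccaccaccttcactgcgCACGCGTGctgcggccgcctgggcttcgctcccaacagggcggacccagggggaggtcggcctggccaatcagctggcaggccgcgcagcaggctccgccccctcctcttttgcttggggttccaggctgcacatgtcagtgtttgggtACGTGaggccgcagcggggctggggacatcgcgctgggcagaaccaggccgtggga
Hif1a: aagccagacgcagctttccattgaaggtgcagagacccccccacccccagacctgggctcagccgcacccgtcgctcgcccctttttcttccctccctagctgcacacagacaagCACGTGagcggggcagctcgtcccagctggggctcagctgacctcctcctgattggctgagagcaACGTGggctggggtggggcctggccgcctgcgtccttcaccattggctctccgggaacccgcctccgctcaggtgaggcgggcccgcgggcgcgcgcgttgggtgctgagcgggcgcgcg
Hif1an: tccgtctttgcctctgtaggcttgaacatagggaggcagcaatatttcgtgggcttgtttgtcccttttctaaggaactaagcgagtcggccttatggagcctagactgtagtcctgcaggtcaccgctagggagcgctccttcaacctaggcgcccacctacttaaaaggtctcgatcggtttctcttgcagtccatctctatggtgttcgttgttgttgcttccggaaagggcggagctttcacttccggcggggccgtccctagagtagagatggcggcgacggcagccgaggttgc

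ACGTG was found in the windows of all 3 reporters, once in Egln3 (first base 229 bases before the start site), once in Bnip3 (as CACGTG) and at 2 places in Ankrd37. It was also found among the components in Hif1a, Egln1 and Egln2, and was not in the windows of Arnt, Vhl and Hif1an. For Egln2 a second annotated start site, within the gene, had a window without ACGTG. Of the 9 members with a window, 6 held ACGTG and 5 held GCGTG, where 26.8% and 50.3% of 13254 windowed genes of the deposited table did. No window was listed for Epas1. These matches describe letters only, and letters outside the windows were not searched.

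Hif1a, the inducible alpha subunit, had the highest mean FPKM of the members in both groups, although Bnip3 was above it in stretched 3, static 1 and static 2 (ID 15251, chr12:73901324-73947554, plus strand). It lay at 154, 203 and 117 FPKM in stretched libraries, against 56.7, 50.2 and 88.3 FPKM in static libraries. The lowest stretched library (stretched 3) remained above the highest static one (static 3). The log2 fold change was 1.52 ± 0.31 (adjusted p = 0.0289, edgeR), a 2.87-fold difference on the fitted scale, and the call was lost with the replicate block (adjusted p = 0.0569). It was 1.78 without static 3 and 1.18 without stretched 2, and of the 6 fits that leave out a library it passed without stretched 3 and without static 3 (adjusted p = 0.0348 and 0.00886, with 6.27e-05 to 0.108 over all alternatives). The antisense gene Gm15283 covers the locus, and the protein-coding gene Gm49321 overlaps its end on the same strand. Neither is in the gene table, and their reads cannot be told apart from those of Hif1a here.

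Hif1a was also resolved by transcript. Its 5 deposited transcripts include NM_001313920.1, which starts at position 73901375 of chromosome 12 (GENCODE M21, GRCm38), 6529 bases upstream of the start of the main form, NM_010431.2. The upstream form lay at 5.53, 8.59 and 7.45 FPKM in stretched libraries, against 0.56, 0 and 0.99 FPKM in static libraries, static 2 being listed at 0. It was therefore a minor form throughout, with 3.59%, 4.24% and 6.39% of Hif1a FPKM in stretched libraries and 0.988%, 0% and 1.12% in static ones, and its share did not overlap between the groups. The estimated counts of this form, 410 to 640 in stretched and 0 to 71.85 in static libraries, did not overlap either. On scaled counts 25.7% of all tested transcripts did not overlap (12.9% higher, 12.7% lower). No such background was computed for shares of a gene's FPKM. The log2 fold change of the upstream form was 3.99 ± 1.19 and did not pass in edgeR (adjusted p = 0.194), but passed in DESeq2 and in limma on FPKM (adjusted p = 0.0195 and 0.0385, with 0.0195 to 0.469 over all alternatives). The main form held 65.0, 94.5 and 61.3 FPKM in stretched libraries, against 22.2, 21.2 and 39.5 FPKM in static libraries (log2 fold change 1.61 ± 0.33, adjusted p = 0.112). It made up 39.15% to 52.55% of Hif1a FPKM over the libraries. The forms XM_017314961.1 and XM_006515478.3 made up 17.28% to 30.78% and 21.87% to 32.91%, and no start site was matched to either. Reads were divided between transcripts by the authors' counting, so these values are estimates. Across all 29604 transcripts tested edgeR called 1 (0.00338%), and of 19 tested transcripts of the 10 genes it called 0. Of these 19, 14 had an unadjusted p below 0.05 in edgeR, as had 4567 of all 29604. DESeq2 called 9 of the 19 and 2737 of the 29604, and it made many false transcript calls in simulated counts. A single transcript carried all counts of Epas1, Vhl, Hif1an, Egln3 and Bnip3.

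Epas1, the other alpha subunit, did not pass. It lay at 8.23, 5.55 and 6.41 FPKM in stretched libraries, against 9.74, 6.79 and 8.84 FPKM in static libraries, so the groups overlapped. The log2 fold change was -0.14 ± 0.18 (adjusted p = 0.639, edgeR) and remained below 0 in the 12 alternatives run (-0.33 to -0.020). Endothelial cells are known to express Epas1 strongly. The 8 endothelial markers summed to 141, 97.5 and 41.6 FPKM in stretched 1 to 3 and 129, 99.7 and 43.9 FPKM in static 1 to 3, and their part in the Epas1 values was not tested. Hif1a made up 94.9%, 97.3% and 94.8% of the summed FPKM of the 2 alpha subunits in stretched libraries, against 85.3%, 88.1% and 90.9% in static libraries.

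Arnt, the constitutive partner, lay at 17.6, 19.8 and 19.0 FPKM in stretched libraries, against 14.1, 14.9 and 16.4 FPKM in static libraries (log2 fold change 0.52 ± 0.15, adjusted p = 0.0595, edgeR). Vhl, the substrate receptor of the ubiquitin ligase that degrades the alpha subunit, lay at 18.1, 16.6 and 15.8 FPKM in stretched libraries, against 13.2, 12.7 and 16.3 FPKM in static libraries (0.46 ± 0.15, adjusted p = 0.08). The FPKM values of Vhl overlapped between the groups and those of Arnt did not. Neither gene passed, although Arnt passed in DESeq2 (adjusted p = 0.0272) and both passed without static 3 (adjusted p = 0.0327 for Arnt, with 0.0272 to 0.2 over all alternatives, and 0.0229 for Vhl, with 0.0229 to 0.272). Hif1an, the asparaginyl hydroxylase gene, was the least abundant member in both groups (ID 319594, chr19:44562854-44576274, plus strand). It lay at 3.30, 3.02 and 3.45 FPKM in stretched libraries, against 5.35, 5.04 and 5.71 FPKM in static libraries. Its groups were tight and apart, and its log2 fold change of -0.53 ± 0.12 passed (adjusted p = 0.0339, edgeR; 0.0646 with the replicate block). Of the 6 fits that leave out a library it passed in the one without static 3 (adjusted p = 0.0158, with 0.00391 to 0.128 over all alternatives), and its log2 fold change stayed between -0.57 and -0.51 in these fits.

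**Figure D2:**
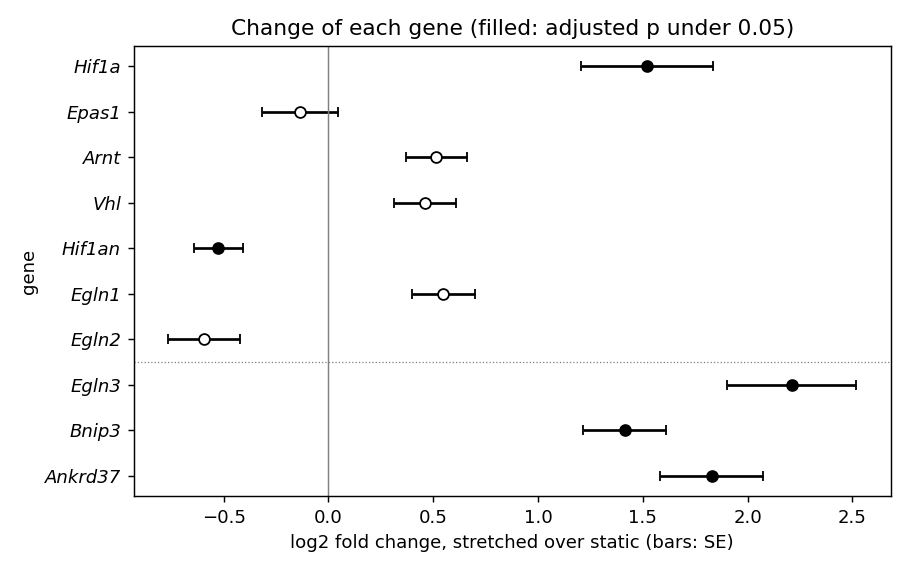
Log2 fold change of each gene, stretched over static, with its SE (edgeR); filled points passed an adjusted p of 0.05, and the dotted line divides components from reporters. The reporters lie at 1.41 to 2.21, Hif1a at 1.52, and Hif1an and Egln2 below 0.

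Of the 3 prolyl hydroxylase genes Egln3 passed, while Egln1 and Egln2 did not. Egln1, which encodes the main oxygen sensor for HIF-1α, lay at 34.2, 33.1 and 34.9 FPKM in stretched libraries, against 30.3, 21.7 and 28.2 FPKM in static libraries (log2 fold change 0.55 ± 0.15, adjusted p = 0.0554, edgeR). Egln2, another prolyl hydroxylase gene, lay at 23.8, 18.8 and 19.0 FPKM in stretched libraries, against 36.2, 40.7 and 31.0 FPKM in static libraries (-0.59 ± 0.17, adjusted p = 0.0639). For both the libraries of the groups did not overlap, and both missed the threshold. Both passed without static 3 (adjusted p = 0.038 for Egln1 and 0.0163 for Egln2). Egln2 passed in DESeq2 and under scaling by library totals (adjusted p = 0.0234 and 0.0253, with 0.0163 to 0.213 over all alternatives), and Egln1 passed in DESeq2 (adjusted p = 0.0186, with 0.0186 to 0.201). The Egln3 values are given above. In stretched libraries Egln3 was the most abundant of the 3 by mean FPKM and Egln2 the least, while in static libraries Egln2 was the most abundant and Egln3 the least.

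Summed over the 3 genes, prolyl hydroxylase transcripts reached 92.3 ± 3.05 FPKM in stretched and 72.2 ± 4.42 FPKM in static libraries (SD, n = 3 each). Egln3 supplied 38.0%, 45.2% and 39.4% of that sum in stretched libraries, against 13.2%, 7.98% and 18.0% in static libraries. Egln2 supplied 25.4%, 19.8% and 21.4% in stretched libraries, against 47.3%, 60.1% and 43.0% in static libraries. The share of Egln1 averaged 36.9% in both groups.

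**Figure D3:**
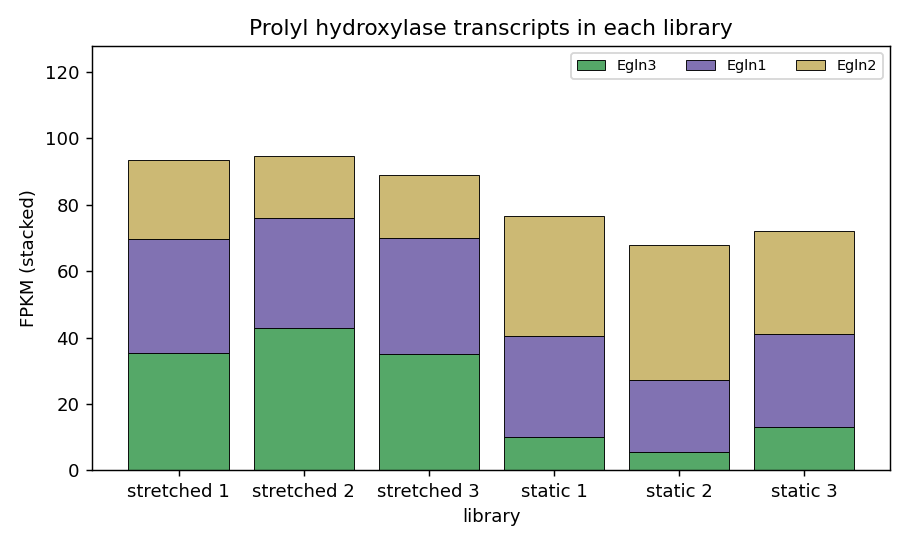
Stacked FPKM of the 3 prolyl hydroxylase genes in each library, stretched libraries on the left. Egln3 makes up 38.0% to 45.2% of each stretched bar and 7.98% to 18.0% of each static bar, and Egln2 19.8% to 25.4% and 43.0% to 60.1%.

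Ratios of one gene to another inside a library do not depend on how libraries are scaled, and 6 pairs were compared. With 3 libraries against 3, an exact two-sided permutation test cannot go below p = 0.1, so none of them could pass. The FPKM ratio of Egln3 to Egln2 was 1.49, 2.28 and 1.84 in stretched libraries, against 0.278, 0.133 and 0.418 in static libraries, a difference in mean log2 ratio of 2.89 (exact p = 0.1, 0.15 adjusted over the 6 pairs). The ratio of Egln3 to Egln1 was 1.04, 1.29 and 1.004 in stretched libraries, against 0.333, 0.25 and 0.46 in static libraries (log2 difference 1.71, exact p = 0.1). In both pairs the groups did not overlap: every ratio was above 1 in stretched libraries and below 1 in static libraries.

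The reporters were also set against Hif1a. Egln3 was higher relative to Hif1a in stretched libraries by 0.79 on the log2 scale (exact p = 0.1, groups not overlapping). Ankrd37 relative to Hif1a differed by 0.35 (exact p = 0.3) and Bnip3 relative to Hif1a by -0.070 (exact p = 0.9), both with overlapping groups. The Bnip3 to Hif1a ratio was 0.832, 0.797 and 1.26 in stretched libraries, against 1.34, 1.08 and 0.669 in static libraries, and the sign of its difference turned with the library left out (-0.35 to 0.15). The ratio of Epas1 to Hif1a was lower in stretched libraries by 1.62 on the log2 scale (exact p = 0.1), and the groups did not overlap.

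By level, the order of the 10 genes in stretched libraries was Hif1a (158 ± 43.1 FPKM), Bnip3 (146 ± 16.8), Egln3 (37.8 ± 4.37), Egln1 (34.1 ± 0.875), Egln2 (20.5 ± 2.80), Arnt (18.8 ± 1.13), Ankrd37 (18.0 ± 2.56), Vhl (16.8 ± 1.15), Epas1 (6.73 ± 1.37) and Hif1an (3.26 ± 0.218), each as mean ± SD over 3 libraries. In static libraries it was Hif1a (65.0 ± 20.4 FPKM), Bnip3 (63.1 ± 11.4), Egln2 (36.0 ± 4.87), Egln1 (26.7 ± 4.50), Arnt (15.1 ± 1.19), Vhl (14.1 ± 1.95), Egln3 (9.49 ± 3.81), Epas1 (8.46 ± 1.51), Ankrd37 (5.86 ± 1.34) and Hif1an (5.37 ± 0.335). Hif1a and Bnip3 overlapped in both groups. Neighbours from Egln2 to Vhl overlapped in stretched libraries, and neighbours from Arnt to Hif1an overlapped in static libraries. Egln3 was the third in stretched libraries and the seventh in static libraries.

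**Figure D4:**
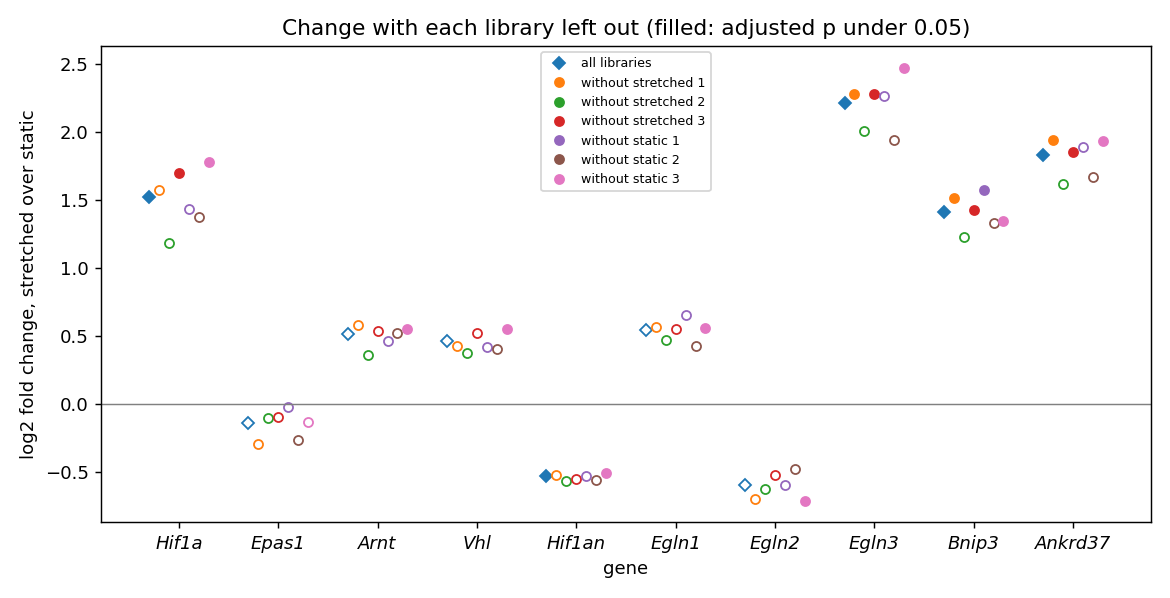
Log2 fold change of each gene, stretched over static, with all libraries (diamonds) and with each library left out (circles); filled symbols passed an adjusted p of 0.05. Signs are the same in every fit shown, and Hif1a runs from 1.18 without stretched 2 to 1.78 without static 3.

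Other genes of the pathway were read from lists. Of 24 further HIF-induced genes outside glycolysis, 11 rose and 0 fell in edgeR, with 18 higher and 0 lower at an unadjusted p below 0.05 and 15 higher and 0 lower in DESeq2. Of all tested genes 6.55% rose and 5.38% fell in edgeR, 16.5% were higher and 15.2% lower at an unadjusted p below 0.05, 31.7% in either direction, and 10.8% rose and 9.96% fell in DESeq2. Their median log2 fold change was 0.89, against -0.0020 over all tested genes. Hilpda, which encodes a lipid-droplet protein that restrains lipolysis, changed most, at 61.7, 151 and 181 FPKM in stretched libraries, against 10.7, 12.9 and 7.26 FPKM in static libraries (3.86 ± 0.45, adjusted p = 0.0122). Ero1l (Ero1a), the endoplasmic reticulum oxidase gene, lay at 120, 151 and 128 FPKM in stretched libraries, against 40.6, 36.5 and 48.9 FPKM in static libraries (1.87 ± 0.20). Ddit4, an inhibitor of mTORC1 signalling, had the smallest p of the list (1.27 ± 0.12, adjusted p = 0.011). Mxi1, an antagonist of MYC, rose by 1.72 ± 0.30, P4ha1, a collagen prolyl hydroxylase subunit, by 0.97 ± 0.16, and Vldlr, a lipoprotein receptor, by 0.90 ± 0.15. The other 5 that rose, named after their values were seen, were Vegfa, P4ha2 and the glycogen genes Gys1, Gbe1 and Ppp1r3b, the last of which lost its call under the replicate block (adjusted p = 0.0555). P4ha2, another collagen prolyl hydroxylase subunit, lay at 50.2, 43.4 and 85.9 FPKM in stretched libraries, against 26.2, 20.3 and 35.9 FPKM in static libraries. The 8 stromal markers, which include collagen genes, summed to 785 to 1454 FPKM in stretched and 727 to 1139 FPKM in static libraries, and 0 of them passed in edgeR. Among them Dcn lay at 2.01 (adjusted p = 0.0604) and Col3a1 at 0.94 (adjusted p = 0.101), and their part in the P4ha1 and P4ha2 values was not tested. Ndrg1, also chosen after its values were seen, did not pass (-0.79, adjusted p = 0.231), with 45.1, 41.6 and 38.1 FPKM in stretched libraries, against 115, 96.3 and 33.9 FPKM in static libraries. Without static 3 it was lower and passed (-1.17, adjusted p = 0.00446), the 1 faller of the list in that fit. The number of risers was 4, 2, 8, 3, 0 and 15 without stretched 1 to 3 and static 1 to 3, and in the fit without static 2 there were 14 at an unadjusted p below 0.05, where 11.7% of all genes were higher at that threshold.

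Of 16 HIF-induced glycolytic genes 5 rose and 0 fell in edgeR (11 and 0 at an unadjusted p below 0.05, and 10 and 0 in DESeq2), beside 6.55%, 16.5% and 10.8% of all tested genes that were higher by the same rules, with a median log2 fold change of 0.56. Pfkfb3, whose product makes an activator of phosphofructokinase, rose most, at 200, 365 and 126 FPKM in stretched libraries, against 42.0, 40.3 and 50.4 FPKM in static libraries (2.64 ± 0.43, adjusted p = 0.0193). The glucose transporter gene Slc2a1 (1.22 ± 0.31), the lactate exporter gene Slc16a3 (0.83 ± 0.18), Pgam1 (0.74 ± 0.19) and Pfkp (0.56 ± 0.14) rose with adjusted p of 0.0331 to 0.0493. With the replicate block only Pfkfb3 of these remained, and the others had an adjusted p of 0.0515 to 0.064. Ldha, Pgk1 and Aldoa had positive values that did not pass (0.63, 0.78 and 0.56), and Pdk1 lay at 0.30 (adjusted p = 0.418). Risers numbered 0, 0, 3, 0, 0 and 6 with each library left out in the same order, with 6 to 11 at an unadjusted p below 0.05, where 11.1% to 23.3% of all genes were higher.

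Of 14 other HIF regulators tested, 0 rose and 0 fell in edgeR. At an unadjusted p below 0.05 there were also 0, DESeq2 called 0, and the median log2 fold change was -0.10. The shares of all tested genes by these 3 rules were 11.9%, 31.7% and 20.8%. Under library totals 2 were lower at an unadjusted p below 0.05 (edgeR) and under limma on FPKM 4, beside 24.3% and 24.4% of all genes. Without stretched 2 there was 1 (higher), and without static 3 there were 2 (1 higher, 1 lower). The regulators include the VHL ligase subunits Cul2, Elob, Eloc and Rbx1 (-0.23 to 0.20) and the coactivators Ep300 and Crebbp (-0.048 and -0.28). The most abundant, Rack1 and Hsp90ab1, lay at -0.068 and -0.23 (adjusted p = 0.838 and 0.491). Hif3a was tested and did not pass (-0.34, adjusted p = 0.634), and the transmembrane hydroxylase gene P4htm had too few counts to be tested.

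Among 14 tested mitophagy receptors and adaptors other than Bnip3, 3 rose and 1 fell, where 6.55% of all tested genes rose and 5.38% fell, with a median of 0.35. Gabarapl1, an ATG8-family gene, rose by 0.90 ± 0.12 (adjusted p = 0.0153), Sqstm1, the p62 cargo adaptor gene, by 1.42 ± 0.36 and Map1lc3a by 1.02 ± 0.26, while Phb2, the inner-membrane receptor gene, fell by 0.77 (SE 0.185). Bnip3l, the closest relative of Bnip3, was on 2 of the lists and lay at 0.68 (adjusted p = 0.0503). The calls of Sqstm1, Map1lc3a and Phb2 were lost with the replicate block (adjusted p = 0.0549, 0.0651 and 0.0684). Risers numbered 0, 0, 2, 0, 0 and 6 with each library left out, with 4 to 7 at an unadjusted p below 0.05 (11.1% to 23.3% of all genes); DESeq2 called 5 higher and 1 lower with all libraries.

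**Figure D5:**
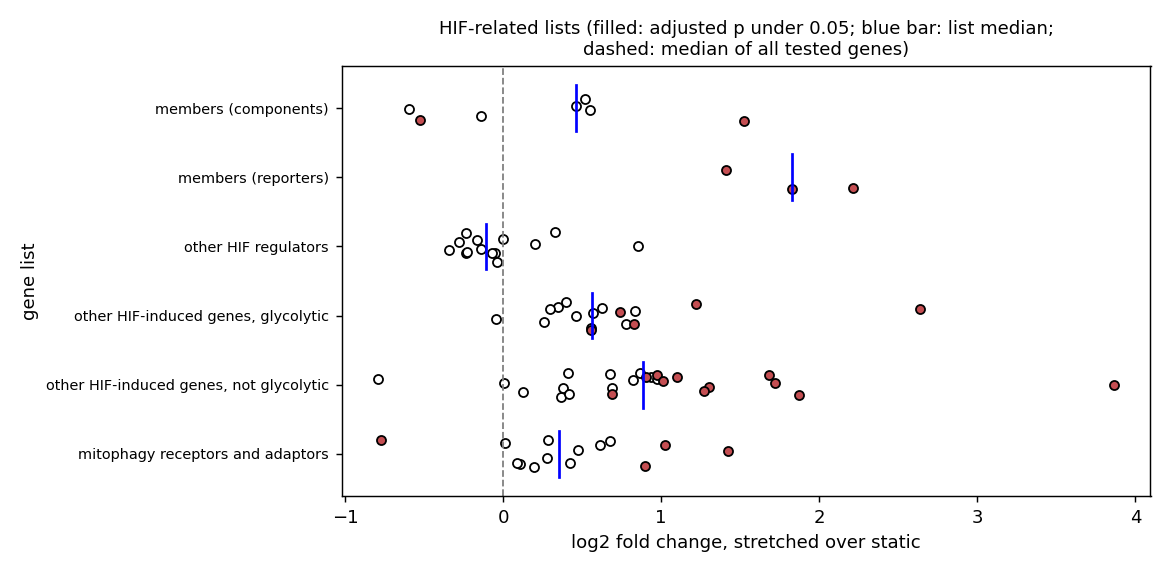
Log2 fold change, stretched over static, of each tested gene in 6 HIF-related lists; filled points passed an adjusted p of 0.05, blue bars are list medians and the dashed line is the median of all tested genes. HIF-induced genes lie mostly right of 0 (medians 0.56 and 0.89), and other HIF regulators around it (median -0.10).

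Across the 6 libraries, the genes whose profile lay nearest to the mean of the 3 reporters, out of 10205 genes of at least 5 CPM, were Ero1l, Baiap2, Mxi1, Pkn3 and Ier3, with a root-mean-square difference of centred log2 CPM of 0.14 to 0.22. The same distance was 0.28 for Egln3, 0.27 for Bnip3 and 0.043 for Ankrd37, the genes that define this mean. For Hif1a it was 0.30 and for Egln1 0.65. Among the genes nearest to Hif1a were Slc8a1, Traf5, Smpdl3b and Ptgir, at 0.12 to 0.15. Their log2 fold changes were 1.27 to 1.69, and the replicate block ended the calls of Smpdl3b and Ptgir (adjusted p = 0.0549 and 0.0762). These likenesses rest on 6 libraries and are a description.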

How the data were processed

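RNA-seq libraries of exosome-treated macrophages were made with a SMARTER mRNA-Seq kit (input 1.3 µg RNA), per the labels' protocols. The deposited gene and transcript tables hold estimated counts, not normalised, per the file headers. A second set of deposited values, whose unit the headers do not name, was taken as FPKM computed by the authors, since within a gene it follows the count over the library total closely. GRCm38 and mm10 appear in the submitters' processing notes, and the aligner and counter were not given in the sources used here. Authors' group averages and an identifier map were not used. Counts were rounded, filtered with filterByExpr (minimum count 10) and tested with edgeR 4.0.16 (R 4.3.3; TMM factors, quasi-likelihood test, Benjamini-Hochberg over all genes or transcripts, threshold 0.05). The SE was derived from the F statistic. Ratios used an exact permutation test.

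Alternatives were DESeq2 1.42.0, limma 3.58.1 on log2 (FPKM + 1), DESeq2 size factors or library totals in place of TMM, no filter, the replicate number as a block, and each library left out; with 1 library left out, the smaller group holds 2 libraries. Deviations from the group means correlated at 0.286, 0.183 and 0.182 between same-numbered libraries and at -0.24 to 0.109 between the others. The numbers were therefore taken as pairs in the block fit, while the main fit was unpaired. The labels do not say what same-numbered libraries share. The models were tested on simulated data, where the edgeR fit of transcripts made no calls, so its lack of calls says little about transcripts; DESeq2 made more false than true transcript calls there, and its transcript calls should be read with that limit. Levels between genes are compared as FPKM. Of 16906 gene identifiers 16802 matched RefSeq (GRCm38.p6), and coordinates are 1-based. The members and lists were chosen with earlier results of these data known. Named are all members, up to 6 called genes per list and direction (or the 2 most abundant), and the 5 genes nearest in profile to the reporters and to Hif1a, of which 1 is not reported here; other pathway genes named as not passing were chosen after their values were seen.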

Additional observations from a re-analysis of the deposited data

How the results depend on the processing

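Over 12 alternatives all 10 members kept the sign of their log2 fold change, and of 120 member values 92 stayed on the same side of the threshold, 19 lost the call and 9 gained it. DESeq2 called 2682 genes, 8 members and 9 member transcripts, where it called 2737 of all 29604 transcripts. With limma on log2 (FPKM + 1) 4 member transcripts were called, where 291 of all transcripts were. Limma called 12 of 67 other pathway genes and 13.3% of all tested genes, where edgeR called 20 and 11.9%. With the replicate block 3 members, 14 of 67 other pathway genes and 9.02% of all tested genes were called. The block ended the calls of Hif1a, Hif1an and those given with it above, including Ppp1r3b and Epcam. It changed no other call among the pathway genes and profile neighbours, except that Plod2 and Ak4 gained a call. With 1 library left out, edgeR called 0 to 4106 genes (0% to 31.5% of those tested), 0 to 9 members and 0 to 28 other pathway genes. Without static 2, where edgeR called 0 genes, 2855 had an unadjusted p under 0.05. For member transcripts edgeR called 0 in each of these fits, with 8 to 13 of 19 at an unadjusted p under 0.05. Among all 31993 to 32404 transcripts tested there, 3370 to 6367 had an unadjusted p under 0.05. The difference in the Bnip3 to Hif1a ratio ran from -0.35 to 0.15. Values near 0 that turned sign with a library left out included Rack1 (-0.18 to 0.038, above 0 without stretched 3) and the Arnt transcript NM_009709.4 (-1.24 to 0.092, above 0 without static 2). Without static 3, Ep300 went from -0.048 to 0.14, Eloc from 0.00073 to -0.13 and Pfkfb4 from -0.043 to 0.25. The cause of these changes was not tested. Same-numbered pairing of the ratios gave the same differences, with a smallest possible exact p of 0.25. At 59 to 273 counts Ankrd37 is the member most limited by depth.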
